A study of Homo sapiens with 8 samples.

Results

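The mitochondrial ribosomal protein genes were examined in DU145 cells, a human prostate cancer line, that had been chronically exposed to the organochlorine insecticide Aldrin, against Non-exposed DU145 cells. Members were all genes with a probe set annotated to that gene alone and a symbol made of MRPL or MRPS and a number. There were 75 such genes among the 18132 genes with a probe set of their own, and they held 166 of the 49293 probe sets tested. The symbols comprised 48 of the MRPL type and 27 of the MRPS type. Of the 75, 74 are protein-coding genes and MRPL20-AS1 is a noncoding transcript antisense to MRPL20. MRPL23, MRPL53 and MRPS24 were not members because their probe sets are annotated to more than 1 gene entry. For each gene the brightest probe set, by its average over the 8 arrays, was taken.

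Aldrin-exposed cells (4 samples) were grown for 50 days with 1 uM Aldrin, renewed at each passage, at a final dimethyl sulfoxide concentration of 0.01%, and Non-exposed cells (4 samples) were labelled as non-treated. Whether Non-exposed cells received the solvent is not given in the sources used here. The labels give no culture time for Non-exposed cells, while the paper states that both conditions were sampled once the 50 days of exposure were over. Both conditions are the same cell line in the same supplemented RPMI medium, and total RNA of each sample was hybridised to a 1-color Affymetrix array. The labels do not say whether the 4 samples of a condition were separate cultures. The p-values therefore reflect the spread among these 8 samples alone, which may be technical. Values are log2 intensities, and in bulk RNA fewer cells with a transcript and less transcript per cell cannot be told apart.

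Mitochondria hold their own ribosome, which translates the few proteins encoded by mitochondrial DNA, all of them subunits of the oxidative phosphorylation complexes. Every protein of that ribosome is encoded in the nucleus, made in the cytosol and imported. Some descend from bacterial ribosomal proteins and others were added in the mitochondrial lineage, and inherited loss of several of them causes mitochondrial disease. Nuclear respiratory factor 1 (NRF1), the ETS factor GABP and YY1 are regulators known to act on promoters of genes of mitochondrial gene expression.

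The starts of the member genes were read from RefSeq (GRCh38.p14) in windows of 250 bases before and 50 after each start, with 84 windows for 68 of the 75 members. The NRF1 core GCGCATGC, on either strand, was found in the windows of 6 of these 68 members (8.82%), against 3.68% of all 27305 genes with a window. The ETS core CCGGAAG was found in 30 of 68 (44.1%), against 12.2% of all genes. The YY1 core GCCATNTTG was found in 14 of 68 (20.6%), against 3.56% of all genes. At least 1 of the 3 motifs was found for 41 members and none for 27, and sites of different motifs overlapped in 0 cases. The genes behind the shares over all genes were not matched to the members in expression or base composition. A match is a run of letters and was not tested as a binding site. The promoters of MRPL52, MRPS34 and MRPL17, members with several matches each, are shown as the 180 bases before the start, 5′ to 3′ on the strand of the gene, with the matches in capitals, so that their arrangements can be compared. MRPL52 (chr14:22829707-22829886, plus strand) carries the NRF1 core at -175, the YY1 core at -99 and -65, and an ETS core that begins at -5 and runs past the start, so that it is not in capitals. MRPS34 (chr16:1773135-1773314, minus strand) carries the ETS core at -71, -29 and -19. MRPL17 (chr11:6683341-6683520, minus strand) carries the NRF1 core at -81, -79 and -43, where the first pair overlap on opposite strands. A match on the opposite strand appears as its reverse complement, as do all those in capitals for MRPL52 and MRPS34.
MRPL52: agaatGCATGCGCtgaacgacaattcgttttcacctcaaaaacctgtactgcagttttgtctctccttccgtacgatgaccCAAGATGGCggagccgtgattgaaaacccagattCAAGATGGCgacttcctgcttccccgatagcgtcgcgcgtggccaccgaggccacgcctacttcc
MRPS34: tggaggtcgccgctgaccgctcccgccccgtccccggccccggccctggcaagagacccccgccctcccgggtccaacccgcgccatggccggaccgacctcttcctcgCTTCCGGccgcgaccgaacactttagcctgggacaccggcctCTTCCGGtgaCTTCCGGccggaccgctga
MRPL17: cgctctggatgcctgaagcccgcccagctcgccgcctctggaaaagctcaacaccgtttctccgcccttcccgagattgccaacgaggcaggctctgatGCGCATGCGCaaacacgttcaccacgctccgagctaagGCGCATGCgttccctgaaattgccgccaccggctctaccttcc

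None of the 75 members passed the test between Aldrin-exposed and Non-exposed cells. The smallest Benjamini-Hochberg adjusted p from limma among them was 1, and 1 probe set of all those tested passed (0.00203%). At an unadjusted p under 0.05 the count of members was 0 from limma and 1 from a test of single probe sets with unequal variances, while limma placed 3.07% of all probe sets there (1.22% higher and 1.85% lower in exposed cells) and the other test 2.77%. Exposed and Non-exposed arrays overlapped in every member, while 1.99% of all probe sets showed no overlap (0.643% higher and 1.35% lower in exposed cells). The mean was higher in exposed cells for 41 members and lower for 34, and 48.2% of all probe sets had the higher mean in exposed cells. Without Non-exposed replicate 4 the number with the higher mean was 23.

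The differences were small beside the replicate error. The median log2 fold change over the members was 0.0026, against -0.0049 over all probe sets, and it ran from -0.22 (MRPL41) to 0.11 (MRPL37). The median size of the difference, without its sign, was 0.04 over the members and 0.07 over all probe sets, and 63 members differed by under 0.1. The SD within conditions had a median of 0.17 over the members and 0.16 over all probe sets, with extremes at MRPS15 (0.05) and MRPL41 (0.62). The 95% interval of the fold change lay within 1.2-fold in both directions for 20 members, within 1.5-fold for 69 and within 2-fold for 74. The intervals that went beyond 1.5-fold belonged to MRPL41, MRPS30, MRPS26, MRPL52, MRPL12 and MRPL20-AS1. MRPL41 alone went beyond 2-fold, with an interval of -1.03 to 0.58 on the log2 scale.

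**Figure D1:**
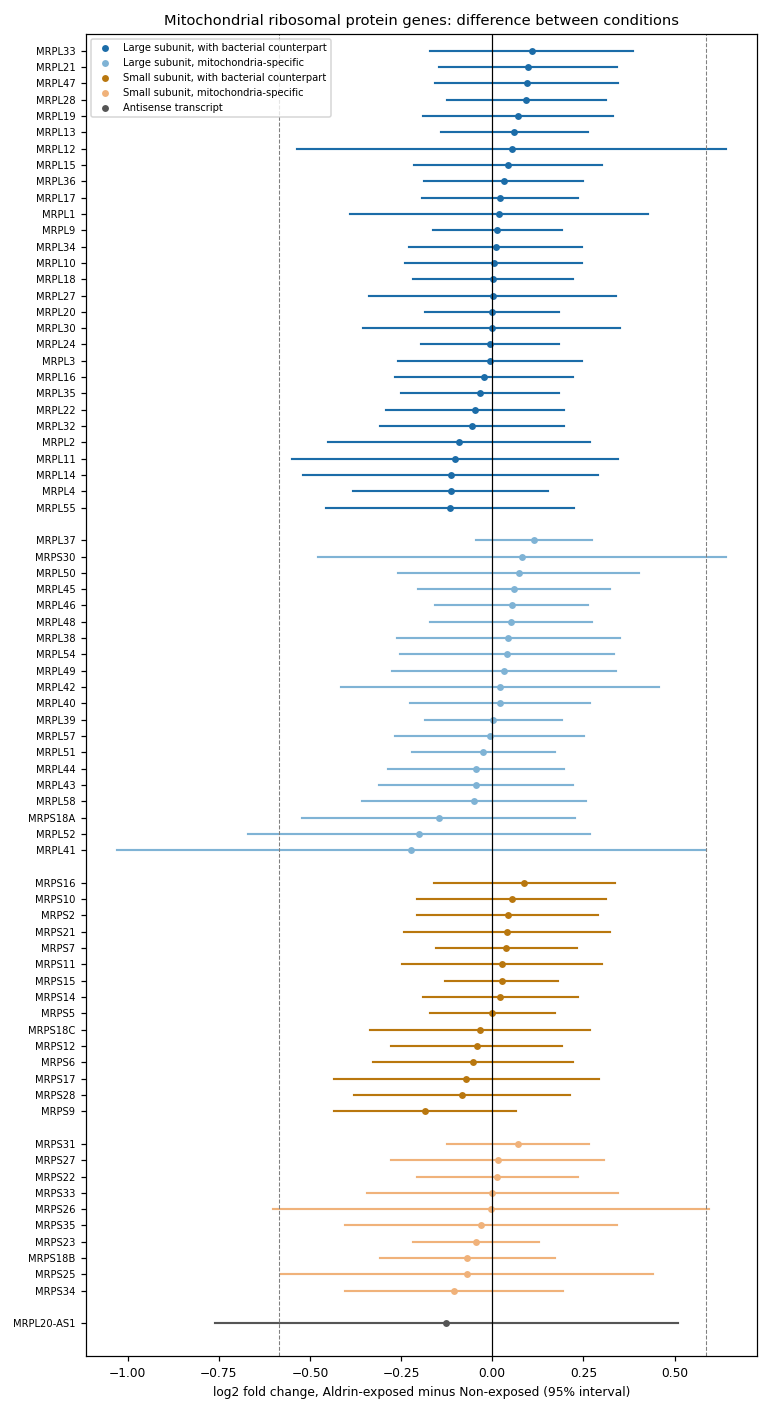
Log2 fold change of each of the 75 members (points), Aldrin-exposed minus Non-exposed, with its 95% interval (lines), sorted within subunit and origin. Dashed lines mark 1.5-fold, and every interval includes 0.

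The member of smallest p was MRPS9, a small-subunit protein with a bacterial counterpart that sits in the head of the subunit. Its log2 values were 11.51, 11.12, 11.19 and 11.29 in Aldrin-exposed cells, against 11.49, 11.65, 11.42 and 11.28 in Non-exposed cells. Exposed replicate 1 lay among the Non-exposed arrays, and Non-exposed replicate 4 lay among the exposed ones, so the conditions overlapped. The log2 fold change was -0.18 (standard error 0.11, 95% interval -0.43 to 0.07), with an unadjusted p of 0.131 and an adjusted p of 1 from limma, and the exact two-sided permutation test over the arrays gave p = 0.2. Without exposed replicate 1 the unadjusted p of MRPS9 was 0.0389 and the adjusted p 0.995.

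MRPL37, a mitochondria-specific protein of the large subunit, had the highest log2 fold change. It read 10.61, 10.59, 10.69 and 10.69 in Aldrin-exposed cells, against 10.54, 10.59, 10.44 and 10.56 in Non-exposed cells. The exposed arrays were the higher ones apart from replicate 2, which lay just under the highest Non-exposed array. The log2 fold change was 0.11 (standard error 0.07, 95% interval -0.05 to 0.27, unadjusted p = 0.142), and the exact permutation test gave p = 0.0571, where the smallest that 4 against 4 arrays allow is 0.0286.

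The other members named on the higher side have bacterial counterparts, apart from MRPS31. MRPL28 read 11.37, 11.51, 11.27 and 11.59 in Aldrin-exposed cells, against 11.51, 11.25, 11.30 and 11.30 in Non-exposed cells. Non-exposed replicate 1 was as high as exposed replicate 2. MRPL21 read 11.29, 11.41, 11.33 and 11.41 in Aldrin-exposed cells, against 11.47, 11.36, 11.24 and 10.97 in Non-exposed cells. The exposed arrays of MRPL21 lay inside the Non-exposed range, whose low end was replicate 4. MRPL33, one of the smallest proteins of the large subunit, read 12.08, 12.18, 11.83 and 12.31 in Aldrin-exposed cells, against 12.17, 11.83, 12.10 and 11.86 in Non-exposed cells. Both conditions held arrays near 11.83 and near 12.17.

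MRPL47, at the exit of the peptide tunnel, read 11.88, 12.06, 12.16 and 11.96 in Aldrin-exposed cells, against 11.92, 12.13, 11.66 and 11.97 in Non-exposed cells. Only Non-exposed replicate 3 lay outside the exposed range. MRPS31, a mitochondria-specific protein of the small subunit, read 9.71, 9.93, 9.76 and 9.80 in Aldrin-exposed cells, against 9.74, 9.85, 9.57 and 9.75 in Non-exposed cells. The ranges again shared most of their span. The log2 fold changes of these 5 members ran from 0.07 (MRPS31) to 0.11 (MRPL33), with unadjusted p-values of 0.36 (MRPL28) to 0.427 (MRPS31). With 1 array left out the lowest values were 0.0038 for MRPL21 (without Non-exposed replicate 4), 0.0070 for MRPL47 and 0.02 for MRPS31 (both without Non-exposed replicate 3), and 0.04 for MRPL28 and MRPL33 (both without exposed replicate 4).

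On the lower side, MRPL4, a protein that lines the peptide tunnel, read 11.91, 11.56, 11.99 and 12.07 in Aldrin-exposed cells, against 11.96, 12.15, 11.91 and 11.97 in Non-exposed cells. Its difference rested on exposed replicate 2, without which the log2 fold change was -0.0061. MRPL52, a mitochondria-specific protein of the central protuberance, read 12.41, 12.56, 11.73 and 12.52 in Aldrin-exposed cells, against 12.81, 12.45, 12.66 and 12.11 in Non-exposed cells. The lowest array of each condition, exposed replicate 3 and Non-exposed replicate 4, stood apart from the rest of its condition. MRPS18A, which despite its symbol belongs to the large subunit, read 10.89, 10.10, 10.71 and 10.80 in Aldrin-exposed cells, against 10.73, 10.86, 10.90 and 10.60 in Non-exposed cells. Exposed replicate 2 was the low one, and without it the log2 fold change of MRPS18A was 0.03 in place of -0.15.

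MRPS34, a mitochondria-specific protein of the small subunit whose loss causes a form of Leigh syndrome, read 11.90, 11.37, 11.61 and 11.84 in Aldrin-exposed cells, against 11.92, 11.83, 11.83 and 11.56 in Non-exposed cells. Exposed replicates 1 and 4 were in the upper part of the Non-exposed range. MRPL55, the counterpart of a bacterial large-subunit protein, read 11.05, 10.92, 10.73 and 10.93 in Aldrin-exposed cells, against 11.21, 11.10, 11.24 and 10.56 in Non-exposed cells. Non-exposed replicates 1 to 3 were above all exposed arrays and replicate 4 was below them. Without Non-exposed replicate 4 the log2 fold change of MRPL55 was -0.27 in place of -0.12, with an unadjusted p of 0.0232 and an adjusted p of 0.823. Over these 5 members the log2 fold changes ran from -0.20 (MRPL52) to -0.11 (MRPS34), and their unadjusted p-values from 0.358 to 0.463. Leaving out 1 array gave -0.0098 for MRPL52 (without exposed replicate 3) and -0.0019 for MRPS34 (without exposed replicate 2).

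**Figure D2:**
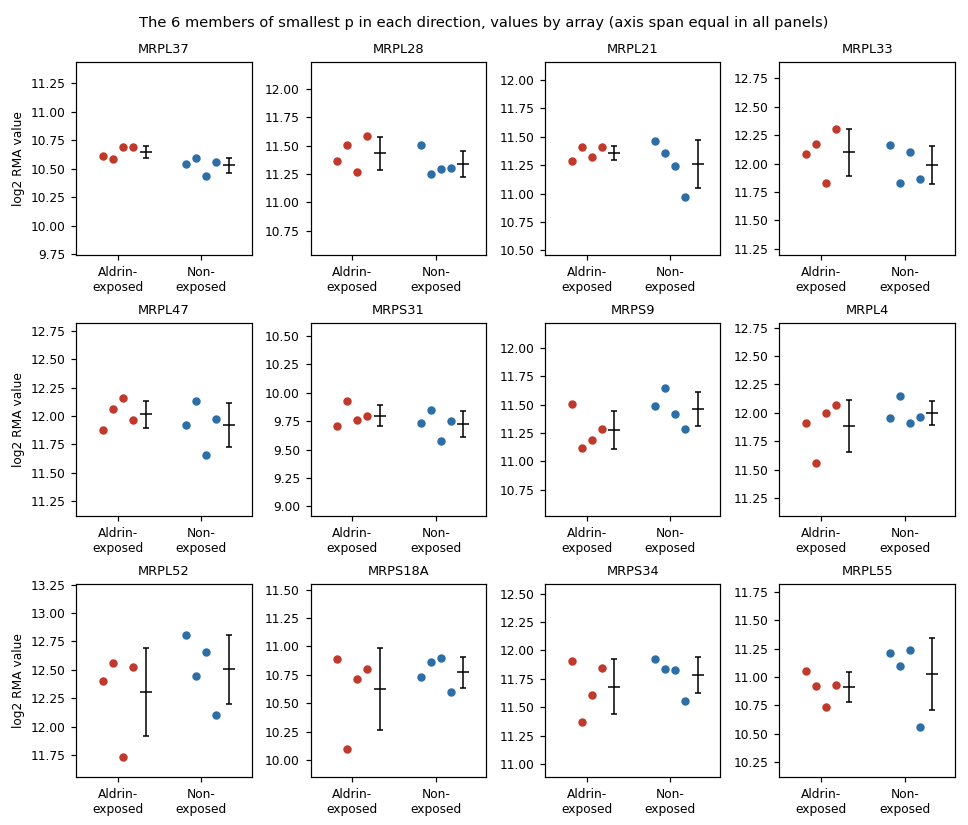
Log2 RMA values by array of the 6 members of smallest p with the higher mean and the 6 with the lower mean in exposed cells, with Aldrin-exposed arrays (red) left of Non-exposed arrays (blue) and mean ± SD in black (n = 4 each). The y axes differ in position but span the same distance, and in all 12 panels the conditions overlap.

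The members were also counted by subunit and origin. Among 29 large-subunit proteins with bacterial counterparts 17 were on the higher and 12 on the lower side by their mean in exposed cells, at a median log2 fold change of 0.0026, and among 20 mitochondria-specific large-subunit proteins 12 and 8 did (median 0.02). The second group includes MRPS18A and MRPS30, which are placed in the large subunit in spite of their symbols. Among 15 small-subunit proteins with bacterial counterparts 8 had the higher and 7 the lower mean (median 0.02), and among 10 mitochondria-specific ones 4 and 6 did (median -0.02). In each of these groups 0 members passed the test. Without Non-exposed replicate 4 the 4 medians were all below 0, from -0.08 to -0.02, and without Non-exposed replicate 1 all above 0, from 0.04 to 0.06.

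The stalk of the large subunit, which recruits translation factors, was represented by 4 of its 5 listed proteins, and 3 of them had the higher mean with exposure, at a median of 0.02. MRPL11, of the stalk base, had the smallest p of these. It read 12.43, 12.38, 11.68 and 12.28 in Aldrin-exposed cells, against 12.55, 12.32, 12.46 and 11.85 in Non-exposed cells (log2 fold change -0.10). The low arrays were exposed replicate 3 and Non-exposed replicate 4, as for MRPL52. Of the 7 measured proteins at the peptide exit site 4 had the higher mean (median 0.0029), and of the 7 of the central protuberance 5 did (median 0.02). Of the 16 members in which inherited mitochondrial disease is known, 9 had the higher and 7 the lower mean (median 0.0084). None of these lists held a member past the test, at an unadjusted p under 0.05 or without overlap. Their 4 medians were below 0 without Non-exposed replicate 4 (-0.07 to -0.04) and above 0 without Non-exposed replicate 1 (0.03 to 0.07).

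MRPL41 and MRPL20-AS1 had the widest spread between arrays. MRPL41, a mitochondria-specific protein of the large subunit, read 10.25, 10.57, 9.48 and 10.36 in Aldrin-exposed cells, against 10.99, 9.97, 11.03 and 9.57 in Non-exposed cells. Both conditions held an array near 9.5, and Non-exposed replicates 1 and 3 were the highest. Its log2 fold change of -0.22 was the lowest of the members (standard error 0.36, unadjusted p = 0.549). MRPL20-AS1, the antisense transcript, read 11.09, 11.15, 10.12 and 11.04 in Aldrin-exposed cells, against 11.32, 10.81, 11.40 and 10.38 in Non-exposed cells. Again exposed replicate 3 and Non-exposed replicate 4 were the low arrays, and the log2 fold change was -0.13 (standard error 0.28).

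The low arrays of these members were shared by most others. In Aldrin-exposed cells, 50, 51, 23 and 46 of the 75 members were above their 8-array mean on replicates 1 to 4, and the median deviations were 0.03, 0.07, -0.14 and 0.04. In Non-exposed cells, 61, 51, 40 and 14 members were above it, and the median deviations were 0.12, 0.04, 0.02 and -0.16. Thus 52 members were below their mean in exposed replicate 3 and 61 in Non-exposed replicate 4, 1 array of each condition. All 4 stalk members and all 7 members of the central protuberance were below their mean on both of these arrays. Over all probe sets the median deviation ran from -0.02 to 0.01 and the share above the mean from 44.9% to 53.5%. Quantile normalization keeps the arrays near one another over all probe sets. All 75 members averaged above the median level of all probe sets, and genes of similar brightness were not compared. With both arrays left out, an alternative chosen after the data were seen, 0 members passed and the median log2 fold change was -0.01.

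**Figure D3:**
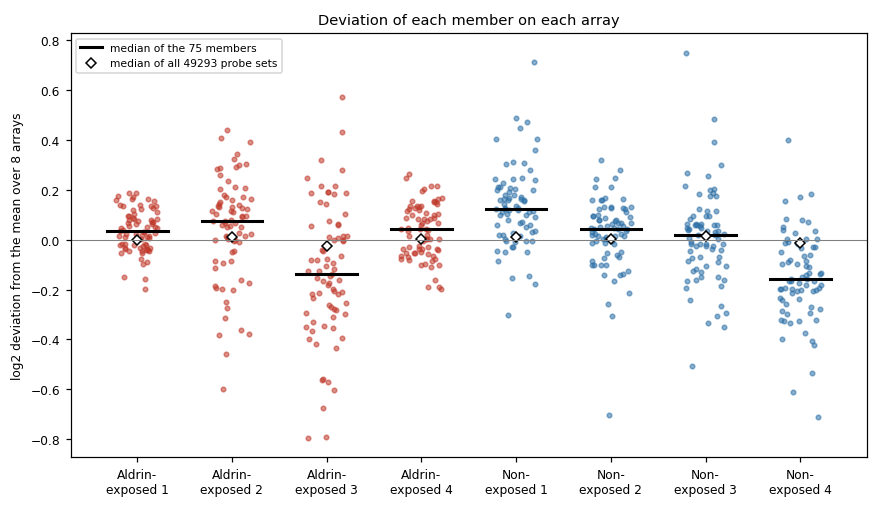
Deviation of each of the 75 members from its own mean over the 8 arrays, on the log2 scale, with Aldrin-exposed arrays (red) left of Non-exposed arrays (blue). Black bars are member medians and white diamonds the medians of all probe sets. The member medians are lowest in exposed replicate 3 (-0.14) and Non-exposed replicate 4 (-0.16).

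A decomposition of the members' deviations, chosen after their values were seen, placed 71.9% of their variance over arrays on 1 axis and 10.5% on the next. Loadings on the first axis were 0.09, 0.32, -0.62 and 0.08 for Aldrin-exposed replicates 1 to 4, and 0.42, -0.14, 0.32 and -0.46 for Non-exposed replicates 1 to 4. Both conditions thus had arrays at both ends of the axis. The first axis over all genes held 53.4% of the variance. Its loadings were 0.13, 0.26, -0.62 and -0.01 for exposed replicates 1 to 4, and 0.39, -0.12, 0.41 and -0.44 for Non-exposed replicates 1 to 4. Exposed replicate 3 and Non-exposed replicate 4 thus stood at the same end of it as well. The loadings were close to those of the members, so this pattern over arrays was not particular to them. On the members' axis 54 members had a positive score and 21 a negative one. Scores were highest for MRPL41, MRPL20-AS1, MRPS26, MRPS25, MRPL12 and MRPL52, and lowest for MRPS30, MRPL1, MRPL50 and MRPL16.

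MRPS26, a mitochondria-specific protein of the small subunit, read 10.47, 10.84, 9.89 and 10.59 in Aldrin-exposed cells, against 10.94, 10.28, 10.75 and 9.84 in Non-exposed cells. MRPS30 ran the other way, with 10.99, 10.77, 11.73 and 11.28 in Aldrin-exposed cells, against 10.85, 11.40, 10.65 and 11.55 in Non-exposed cells. The arrays low for MRPS26 were the high ones for MRPS30, while their log2 fold changes between conditions were -0.0048 and 0.08. MRPL1, next to MRPS30 on the axis, read 9.64, 9.51, 10.11 and 9.48 in Aldrin-exposed cells, against 9.50, 9.99, 9.33 and 9.85 in Non-exposed cells. It was highest in exposed replicate 3, with Non-exposed replicates 2 and 4 next.

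**Figure D4:**
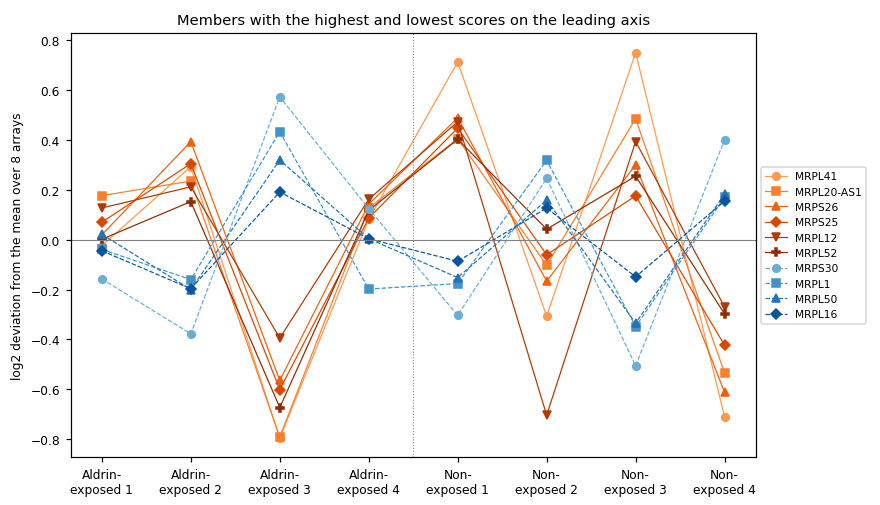
Log2 deviation from the 8-array mean for the 6 members of highest score (orange, solid) and the 4 of lowest score (blue, dashed) on the leading axis, with Aldrin-exposed arrays left of the dotted line and Non-exposed arrays right of it. The lines only join values of a gene, since arrays have no order. The orange members are low and the blue members high in exposed replicate 3 and Non-exposed replicate 4.

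Values of the arrays that could move with this pattern are given beside it. The difference between the 3′ and 5′ probe sets of GAPDH was 0.56, 0.62, 0.65 and 0.41 in Aldrin-exposed replicates 1 to 4, and 0.40, 0.59, 0.39 and 0.59 in Non-exposed replicates 1 to 4. That of ACTB ran from 0.20 to 0.45 in exposed and from 0.16 to 0.28 in Non-exposed arrays. The background difference between control probes rich and poor in G and C was 6.13, 5.59, 5.65 and 6.14 in exposed replicates and 6.17, 5.76, 6.37 and 5.90 in Non-exposed replicates. With this difference as a covariate 0 members passed. Across the 68 members with a promoter window, GC content of the promoter and score on the axis had r = 0.249, a description over genes that share the same 8 arrays. The part of these values in the pattern was not tested.

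Probe sets of the same gene did not always run together. Of the members, 47 had several probe sets and 28 had 1. All probe sets had the same sign of difference in 26 of the 47, and both signs occurred in 21. Sets of a gene are not always separate readings, since the MRPL45 sets with names ending in _s_at had the same values on every array. The counts of agreement were not set against chance. Of the 166 probe sets 90 had the higher mean in exposed cells, 0 passed the test, 6 were at an unadjusted p under 0.05 (3.61%, against 3.07% of all probe sets) and 3 had no overlap (1.81%, against 1.99%). The brightest probe set of the gene was not among the 6, which read MRPL11 and MRPL17 higher and MRPS5, MRPS25, MRPL20 and MRPL9 lower.

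The dimmer probe set of MRPL11 read 8.81, 9.35, 9.09 and 9.004 in Aldrin-exposed cells, against 9.03, 8.69, 8.69 and 8.63 in Non-exposed cells. Its log2 fold change was 0.30, the highest among the 166, where the brighter set of the same gene had -0.10. The lowest, -0.36, was that of a probe set of MRPS5, with 7.71, 7.89, 7.56 and 7.52 in Aldrin-exposed cells, against 8.06, 8.06, 7.91 and 8.10 in Non-exposed cells. All 4 exposed arrays of this probe set were below all Non-exposed arrays, at an unadjusted p of 0.0046 and an adjusted p of 1 from limma. The other MRPS5 sets had log2 fold changes of -0.00048, for the brightest, and 7.5e-06.

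A set of MRPS25, a small-subunit protein, read 7.94, 8.02, 7.90 and 7.82 in Aldrin-exposed cells, against 8.29, 8.34, 8.13 and 8.09 in Non-exposed cells (log2 fold change -0.30). The conditions did not overlap on it, but they did on the other 4 sets of MRPS25, whose log2 fold changes ran from -0.24 to 0.07. A set of MRPL20 was also without overlap, at 8.47, 8.68, 8.15 and 8.70 in Aldrin-exposed cells, against 8.85, 8.70, 8.90 and 8.77 in Non-exposed cells (log2 fold change -0.30). Its brightest set, whose name ends in _s_at, had a log2 fold change of 0.00023. MRPL22 and MRPS11, the other members with the widest range over probe sets, spanned -0.19 to 0.19 and -0.18 to 0.19. Both extremes of MRPL22 came from dim sets, with values of 4.58 to 5.15, where the 5th percentile of all probe sets was 4.35. The brightest MRPL22 set had a log2 fold change of -0.05.

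The sequence of some members recurs in the genome. RefSeq lists 106 pseudogenes with symbols derived from this family, and 39 of the 75 members have at least 1. For 16 members the name of the brightest probe set ends in _s_at or _x_at. Sets with other endings were not counted here, and their probes may also match more than 1 transcript. Signal from such copies cannot be told apart from that of the gene itself with these values.

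Proteins of the mitochondrial ribosome that carry other symbols were also read, with the genes that build and serve it. Of 4 measured proteins with other symbols 1 had the higher mean with exposure, at a median of -0.07. GADD45GIP1, a large-subunit protein also known as a cell cycle regulator, read 10.21, 10.20, 10.20 and 10.51 in Aldrin-exposed cells, against 10.56, 10.40, 10.44 and 10.09 in Non-exposed cells. Exposed replicates 1 to 3 were nearly equal and lay below all Non-exposed arrays but replicate 4. DAP3, a GTP-binding protein of the small subunit, had a log2 fold change of -0.05. KGD4, whose older symbol is MRPS36 and which is now assigned to the ketoglutarate dehydrogenase complex, averaged 11.03 in the Aldrin-exposed samples and 10.95 in the Non-exposed ones (unadjusted p = 0.375).

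Of 10 translation factors 4 were on the higher and 6 on the lower side, at a median of -0.01 (log2). The 2 of smallest p were MTRF1L, a release factor, at -0.17, and OXA1L, which inserts new proteins into the inner membrane, at -0.07. Of 24 ribosome assembly genes 8 and 16 did (median -0.04), with the ribosomal RNA methyltransferases METTL15 at 0.16 and MRM1 at -0.18. Of 16 mitochondrial aminoacyl-tRNA synthetases 6 and 10 did (median -0.04), with FARS2 at 0.16 and VARS2 at -0.11. Of 17 genes of mitochondrial DNA transcription and RNA processing 4 and 13 did (median -0.05), with the helicase SUPV3L1 at -0.11 and the RNA polymerase POLRMT at -0.15. Of 8 nuclear regulators 1 and 7 did (median -0.02), with the coactivators PPARGC1B at -0.25 and PPRC1 at -0.12. With 1 array left out the median ran from -0.07 to 0.01 for the translation factors and from -0.06 to 0.02 for the synthetases. It stayed negative for the assembly genes, the DNA transcription and RNA processing genes, the nuclear regulators and the proteins with other symbols. Fits with 1 array left out share most of their arrays. Within conditions, the array medians of these lists had an SD of 0.10, 0.055, 0.08 and 0.09, in that order. Each SD was larger than the size of that list's median log2 fold change. Of all probe sets 48.2% were on the higher side. None of the genes on these lists passed the test, was at an unadjusted p under 0.05 or had conditions without overlap. The difference between these lists and the members was not tested.

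**Figure D5:**
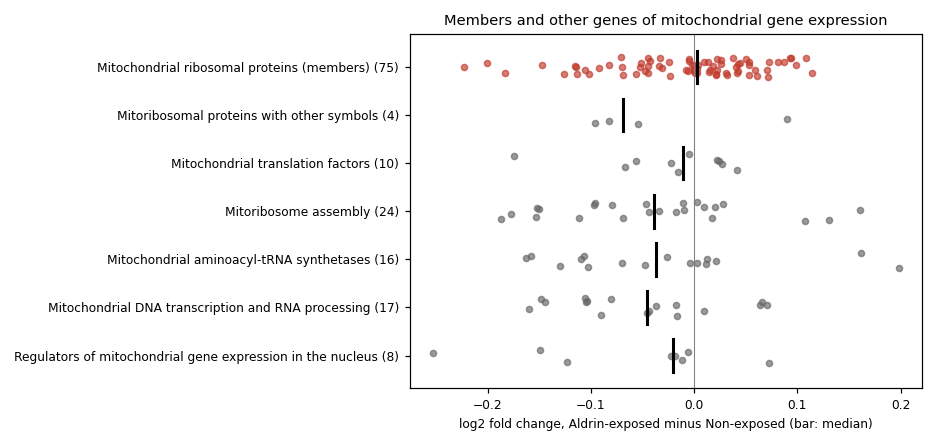
Log2 fold change, Aldrin-exposed minus Non-exposed, of the 75 members (red) and of other genes of mitochondrial gene expression (grey), with the number of genes in brackets and black bars at the medians. The medians run from -0.07 for proteins with other symbols to 0.0026 for the members.

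The labelled cell type was checked against marker genes. The median level of all probe sets was 8.08. The epithelial genes EPCAM, KRT8, KRT18, KRT19 and CDH1 averaged 9.30 to 12.92 with exposure and 9.76 to 13.02 without it. All 5 had the lower mean with exposure, at log2 fold changes of -0.46 to -0.09, while each other class held genes on both sides. Of all probe sets, 48.2% had the higher mean in exposed cells. The androgen-dependent genes KLK3 and KLK2 averaged 5.60 to 6.25 with exposure and 5.57 to 6.32 without it. Markers of blood averaged 4.76 to 5.54 with exposure and 4.75 to 5.66 without it. Those of endothelium averaged 6.56 to 7.73 with exposure and 6.52 to 7.78 without it, and those of fibroblasts and muscle 4.19 to 8.12 with exposure and 4.17 to 8.30 without it. CDH1, the gene of E-cadherin, was the 1 marker at an unadjusted p under 0.05 from limma, where 3.07% of all probe sets were. Its log2 fold change was -0.46 (unadjusted p = 0.0386 and adjusted p = 1 from limma), and 0 markers passed. CDH1 ran from 9.14 to 9.57 in exposed and from 9.29 to 10.14 in Non-exposed arrays, so the conditions overlapped. The exact permutation test gave p = 0.143 for CDH1.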

How the data were processed

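The authors deposited log2 intensities, 1 value per probe set and array, made with RMA from 1-color Affymetrix arrays of 4 Aldrin-exposed and 4 Non-exposed samples. RMA removes background, quantile normalizes and combines the probes of a set, and the array medians of the deposited values ran from 8.05 to 8.10. Its version and the chip definition are not given in the sources used here. The table held 49395 probe sets, of which 102 were controls and the other 49293 entered 1 fit with limma 3.58.1 (R 4.3.3). Moderated two-sided p-values came from eBayes after lmFit, were adjusted by Benjamini-Hochberg across the whole table and were called at 0.05. Exact permutation tests were run over the 8 arrays. Of the probe sets 44988 had 1 annotated gene, 1832 several and 2473 none, and 0 value columns were unused. The number of arrays limits the precision.

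The members and lists were chosen with earlier results of these data known. Named were, in each direction, the 6 members of smallest p and the 5 of largest difference, the member of smallest p of each member list, the 4 with the widest range over probe sets, entries that are no ribosomal protein, and the 2 genes of smallest p of each other list. Any other member was printed with its values already known. The labels do not say whether the replicate numbers pair the samples, and the main fit did not pair them. Promoter windows came from RefSeq (GRCh38.p14). Alternatives were an intensity trend in the variance, weights for arrays, the replicate number as a block, a per-probe-set test with unequal variances, centring, a second quantile normalization, dim probe sets, the choice and type of probe set, the adjustment over genes, and arrays left out. A covariate for GC-dependent background and the removal of both low arrays together were added after the data were seen. Python 3.11.15 with numpy 2.4.6, pandas 2.3.3 and matplotlib 3.10.9 was used for counts and figures.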

Additional observations from a re-analysis of the deposited data

Results flagged for a closer look

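In the named genes, 60 groups of 4 arrays were examined for a single array far from the rest of its condition, and 6 were found. Chance gives about 1 in 20 for independent groups. These genes were named by their values and share the same arrays, so the count was not tested against that rate. MRPL20-AS1 read 10.12 in Aldrin-exposed replicate 3, against 11.04 to 11.15 in the other exposed arrays. GADD45GIP1 read 10.51 in Aldrin-exposed replicate 4, against 10.20 to 10.21 in the others. MTRF1L read 9.90 in Aldrin-exposed replicate 3, against 10.15 to 10.18 in the others. SUPV3L1 read 11.20 in Aldrin-exposed replicate 3, against 10.99 to 11.02 in the others, and 11.22 in Non-exposed replicate 2, against 11.12 to 11.14 in the others. OXA1L read 11.37 in Non-exposed replicate 4, against 11.65 to 11.68 in the others. Exposed replicate 3 accounts for 3 of the 6.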

How the results depend on the processing

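The count of members past the threshold was 0 under all 20 alternatives. With the replicate block it was also 0, with a smallest unadjusted p of 0.188 for MRPS9, and the block changed no call. Deviations of samples with the same number had correlations of -0.72 to 0.31, and those of different numbers -0.68 to 0.78.

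At an unadjusted p under 0.05 the count was 1 with the unequal-variance test (MRPL37). It was 2 without _s_at and _x_at probe sets (MRPL17 and MRPL20, 72 members measured) and 0 to 1 with an array left out. The shares of all features were 2.77%, 3.24% and 2.15% to 5.70%. Members without overlap numbered 1 with a second quantile normalization (MRPL37), 1 with the mean over probe sets (MRPS14) and 1 without _s_at and _x_at probe sets (MRPL20). They numbered 2 without both low arrays (MRPL55 and MRPS18C) and 0 to 2 with an array left out. The shares of all features without overlap under these settings were 2.00%, 2.25%, 2.05%, 8.29% and 3.25% to 6.33%, and fewer arrays overlap less often by construction. The members with the higher mean in exposed cells numbered 23 (without Non-exposed replicate 4) to 52 (without exposed replicate 3), and the median log2 fold change then ran from -0.06 to 0.04.

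Of 599 log2 fold changes of the 30 named genes under the alternatives, 572 kept their sign and 27 in 10 genes turned it. Of all these, 0 passed the threshold. No log2 fold change moves under the intensity trend, replicate block, unequal-variance test, removal of dim probe sets or adjustment over genes. Values under those settings count among the 572 although they could not turn. Array weights gave MRPL47 -0.030, MRPS31 -0.0011, MRPL20-AS1 0.023 and MRPL20 -0.0071. The GC covariate gave MRPL20-AS1 0.048. The mean over probe sets gave MRPL11 0.10, MRPL20 -0.079 and METTL15 -0.012. MRPL20 was -0.0010 with centred arrays, -0.0046 with a second quantile normalization and -0.30 without _s_at and _x_at probe sets. MRPS11 was -0.025 without both low arrays. With 1 array left out the ranges were -0.24 to 0.028 for MRPS18A, -0.50 to 0.0055 for MRPL41, -0.33 to 0.12 for MRPL20-AS1, -0.25 to 0.068 for MRPL11, -0.11 to 0.026 for MRPL22, -0.029 to 0.053 for MRPL20 and -0.052 to 0.14 for MRPS11. Except where fewer samples or other probe sets entered, the cause was not tested.

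With 4 arrays per condition the half-width of a member's 95% interval had a median of 0.26 and ran from 0.15 to 0.81 on the log2 scale, without adjustment for the number of probe sets.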
